A study of Mus musculus with 6 samples.

Results

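The regions described here are a pair of 1 Mb stretches of the mouse genome (build mm9), chr7:108000001-109000000 and chr13:37000001-38000000. They were chosen by the difference in DNA methylation level between these same Tet2/3 DKO and wild-type samples, which in both was among the largest gains of all autosomal 1 Mb bins. They are 2 of 2417 bins, and hold 10596 and 8961 of the 19595361 autosomal CpGs listed. Methylation was read by whole-genome bisulfite sequencing in LSK cells of Tet2/3 DKO mice (DKO, 3 samples) and of wild-type mice (WT, 3 samples). The name DKO stands for a knockout of both genes. LSK cells (negative for lineage markers, positive for Sca-1 and c-Kit) include the blood stem cells, and were sorted from the marrow of femurs and tibiae after depletion of lineage-positive cells. The labels call the samples biological replicates, and give neither the alleles, a Cre driver, the age of the mice nor whether a sample was 1 animal. Methylation levels do not show which cells were sorted, so the LSK label was not checked against markers.

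Tet enzymes oxidise 5-methylcytosine to 5-hydroxymethylcytosine and further products, a step on the way to unmethylated cytosine. Most CpGs of a mammalian genome are methylated. CpG-dense promoters are usually free of methylation, and short stretches of intermediate level away from promoters are often regulatory elements, where Tet activity is well known. Bisulfite sequencing reads both marks as methylated. The question for these megabases was whether the gain was broad or made of short windows of low methylation, and how it compared with the 2 Mb on either side.

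Genes were placed on mm9 by matching the spacing of CpGs in RefSeq promoter sequences (GRCm38.p6, 250 bases before to 50 after a transcription start) to the CpG positions listed in the data. This placed 18 promoters of 11 genes in the chromosome 7 bin, from Relt, a receptor of the tumour necrosis factor receptor family, to Folr2, a folate receptor. Of the 14 protein-coding genes between the outermost of these, 10 were placed. In the chromosome 13 bin it placed 11 promoters of 9 genes, with all 3 protein-coding genes between the outermost: F13a1 (the A chain of coagulation factor XIII), Ly86 (also called MD-1, a partner of the receptor RP105 on immune cells) and Rreb1 (a zinc finger transcription factor). The following 4 promoters are shown as examples and were picked with their values known. They are CpG-dense starts without methylation, and starts with fewer CpGs and an intermediate level that was higher in DKO. They are from RefSeq, with CpGs in capitals, each 5′ to 3′ on the plus strand.

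Arap1, chr7:108496333-108496632: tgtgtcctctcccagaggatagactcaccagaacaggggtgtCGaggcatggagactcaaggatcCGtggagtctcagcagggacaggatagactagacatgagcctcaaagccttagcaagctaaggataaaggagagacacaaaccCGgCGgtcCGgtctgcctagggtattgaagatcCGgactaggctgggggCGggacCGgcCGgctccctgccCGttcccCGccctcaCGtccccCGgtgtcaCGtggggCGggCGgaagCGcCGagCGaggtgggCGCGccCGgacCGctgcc
Pde2a, downstream start, chr7:108604326-108604625: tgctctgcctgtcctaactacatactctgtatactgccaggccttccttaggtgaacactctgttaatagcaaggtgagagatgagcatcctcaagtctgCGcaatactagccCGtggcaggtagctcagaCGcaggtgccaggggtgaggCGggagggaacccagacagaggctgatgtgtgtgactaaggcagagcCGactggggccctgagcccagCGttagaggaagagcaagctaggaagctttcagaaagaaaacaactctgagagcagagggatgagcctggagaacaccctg
Gm31600, chr13:37853182-37853481: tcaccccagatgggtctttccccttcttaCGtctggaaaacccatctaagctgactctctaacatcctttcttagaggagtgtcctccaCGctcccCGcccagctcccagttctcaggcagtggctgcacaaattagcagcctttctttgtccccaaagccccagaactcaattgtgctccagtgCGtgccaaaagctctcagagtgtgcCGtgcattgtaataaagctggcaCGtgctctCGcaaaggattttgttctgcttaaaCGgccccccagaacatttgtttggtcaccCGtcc
Rreb1, chr13:37918531-37918830: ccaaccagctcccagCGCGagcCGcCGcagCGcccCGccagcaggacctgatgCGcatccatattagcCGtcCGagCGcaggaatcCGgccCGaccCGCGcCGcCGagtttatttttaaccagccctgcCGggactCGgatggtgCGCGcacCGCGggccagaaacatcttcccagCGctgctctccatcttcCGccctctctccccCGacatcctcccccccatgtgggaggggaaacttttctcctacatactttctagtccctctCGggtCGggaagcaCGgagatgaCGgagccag

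Arap1 is an Arf GTPase-activating protein, and the 23 CpGs of its sequence had a level of 0% in all 3 DKO and all 3 WT samples. The 29 CpGs of the Rreb1 sequence were likewise at 0% in all 6. Pde2a is a phosphodiesterase of cyclic nucleotides. The 6 CpGs of its downstream start had levels of 90%, 58.8% and 75% in DKO, against 53.3%, 50% and 53.3% in WT, on 15 to 56 reads. The 9 CpGs of Gm31600 had 91.8%, 82.6% and 72.7% in DKO, against 59.4%, 55.3% and 53.3% in WT, on 30 to 86 reads. At both of these starts, which have fewer CpGs than those of Arap1 and Rreb1, all DKO samples were above all WT samples.

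The libraries held 83560585 to 111763872 reads at CpGs in DKO and 70815948 to 72747248 in WT, a mean depth of 4.09 to 5.46 reads per CpG in DKO and 3.46 to 3.56 in WT. A read was counted at each CpG it covered. Single CpGs were thus measured coarsely, more so in WT, and reads were summed over windows. Over all autosomes the level was 81.6% ± 0.826 in DKO and 80.8% ± 0.314 in WT, a difference of 0.787 points (SD, n = 3 each; two-sided exact permutation test, p = 0.3, where 3 samples against 3 cannot go below 0.1). Mitochondrial CpGs, which are thought to be almost free of methylation, had levels of 1.53%, 1.86% and 1.75% in DKO and 1.37%, 1.21% and 1.25% in WT. The part of this difference in the values below was not tested.

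In the chromosome 7 bin the level was 78.6%, 77.7% and 78.9% in the DKO samples and 74.7%, 73.8% and 74.3% in the WT samples, a gain of 4.15 ± 0.439 percentage points (SE of the difference). In the chromosome 13 bin it was 84.9%, 84.4% and 83.6% in DKO and 79.3%, 80.4% and 80.4% in WT, a gain of 4.25 ± 0.533 points. The groups did not overlap in either bin. These values chose the bins and are given without a test. Ranked by gain, the chromosome 13 bin was number 2 and the chromosome 7 bin number 3 of the 2417. Just above them stood chr4:134000001-135000000 with 4.30 points and just below them chr17:29000001-30000000 with 4.11 points, and the median over all bins was 0.635 points. With 1 sample left out, the chromosome 7 bin was ranked 2 to 5 and the chromosome 13 bin 1 to 14.

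Cut into 100 kb pieces, both bins had a mean difference above 0 in every piece, of unequal size. In the chromosome 7 bin 10 of 10 pieces had a higher mean in DKO, by 0.109 to 7.67 points with a median of 3.54. In the chromosome 13 bin it was again 10 of 10, by 0.962 to 8.15 points with a median of 3.24. Over all 24003 autosomal pieces the DKO mean was the higher in 60.7%. The groups were fully apart, DKO above WT, in 7 pieces of the chromosome 7 bin and 8 of the chromosome 13 bin, against 18.5% of all pieces, and 3.75% of all pieces were apart the other way. Since the bins were chosen for their gain, nothing is read from these counts.

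**Figure D1:**
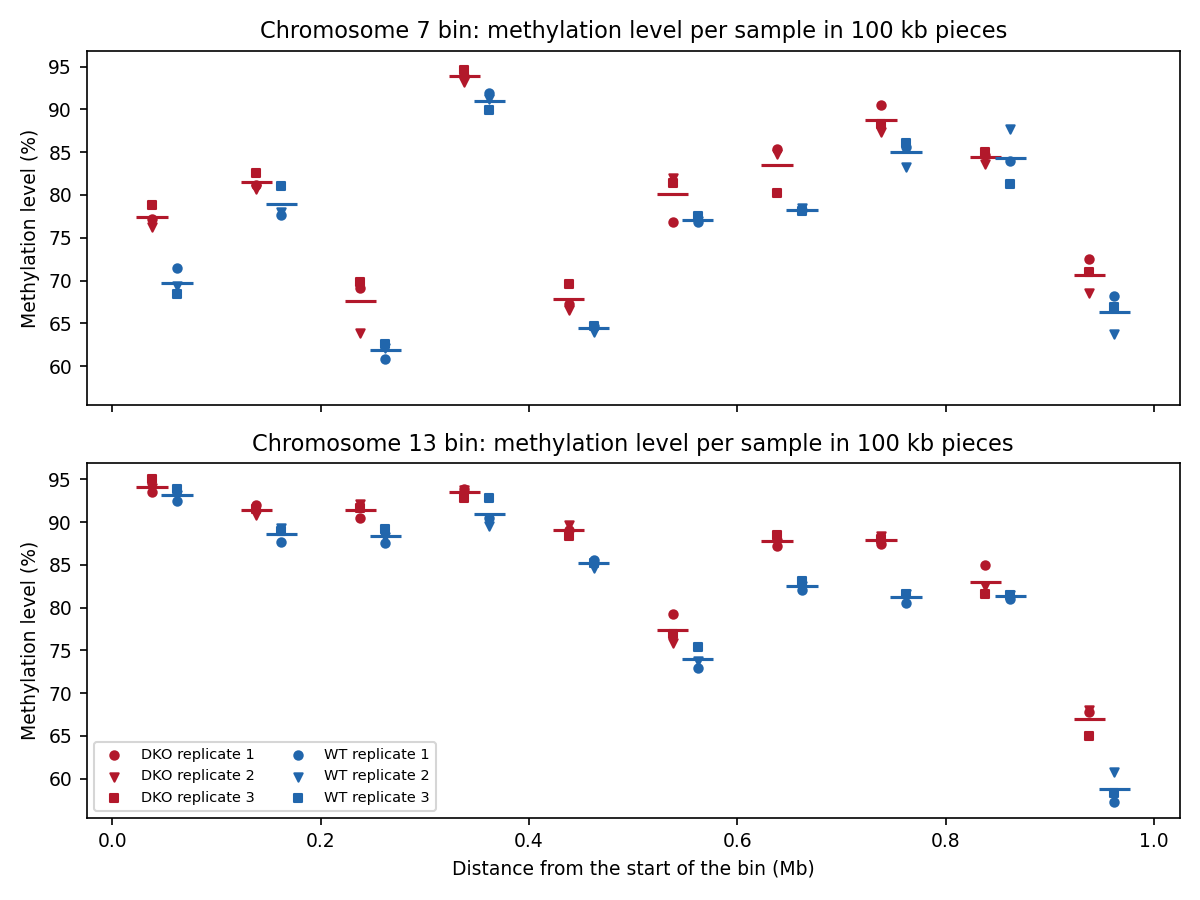
Methylation level in percent of each sample (points) and each group's mean (lines) in the 100 kb pieces of each bin, DKO in red to the left and WT in blue to the right of each pair, against the distance from the start of the bin in Mb. The DKO mean lies above the WT mean in 10 of 10 pieces of both bins, and the pieces differ more from each other than the groups do.

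On chromosome 7 the largest gain was in chr7:108000001-108100000, around the Relt start, with 77.2%, 76.3% and 78.8% in DKO and 71.5%, 69.4% and 68.4% in WT. The smallest was in chr7:108800001-108900000, which holds the start of Clpb (a mitochondrial protein disaggregase), with 84.7%, 83.7% and 85% in DKO and 84%, 87.7% and 81.3% in WT. The groups stood apart around Relt and overlapped around Clpb. On chromosome 13 the largest gain was in chr13:37900001-38000000, where the Rreb1 starts lie, with 67.8%, 68.1% and 65% in DKO and 57.3%, 60.8% and 58.3% in WT. The smallest was at the opposite end, in chr13:37000001-37100000, with 93.5%, 94% and 95% in DKO and 92.5%, 93.2% and 93.9% in WT. There the groups overlapped.

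The flanks were not used to choose the bins and could be tested. Over the 2 Mb to the left of the chromosome 7 bin the level was 81.2%, 80.3% and 81.2% in DKO and 79.3%, 78.6% and 78.6% in WT, a difference of 2.05 points (exact permutation p = 0.1, the smallest possible). To the right it was 84.3%, 83.4% and 83.5% in DKO and 83.2%, 83.4% and 83.2% in WT, a difference of 0.445 points (exact permutation p = 0.2). On the left all DKO samples were the higher, and on the right the groups overlapped.

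To the left of the chromosome 13 bin the level was 84.8%, 85.1% and 86% in DKO and 84%, 84.1% and 83.8% in WT, a difference of 1.29 points (exact permutation p = 0.1). To its right it was 85.4%, 84.8% and 86.1% in DKO and 84.7%, 84% and 85.5% in WT, a difference of 0.768 points (exact permutation p = 0.3). Here too the groups were apart on the left and overlapped on the right. On both chromosomes the left flank had a larger difference than the right and each flank a smaller one than its bin. These differences between stretches were not tested.

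In 100 kb pieces the DKO mean was higher in 17 of 20 pieces to the left and 9 of 20 to the right on chromosome 7, with medians of 2.24 points on the left and -0.0610 on the right. On chromosome 13 it was higher in 18 of 20 to the left and 11 of 20 to the right, with medians of 1.03 and 0.211 points.

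**Figure D2:**
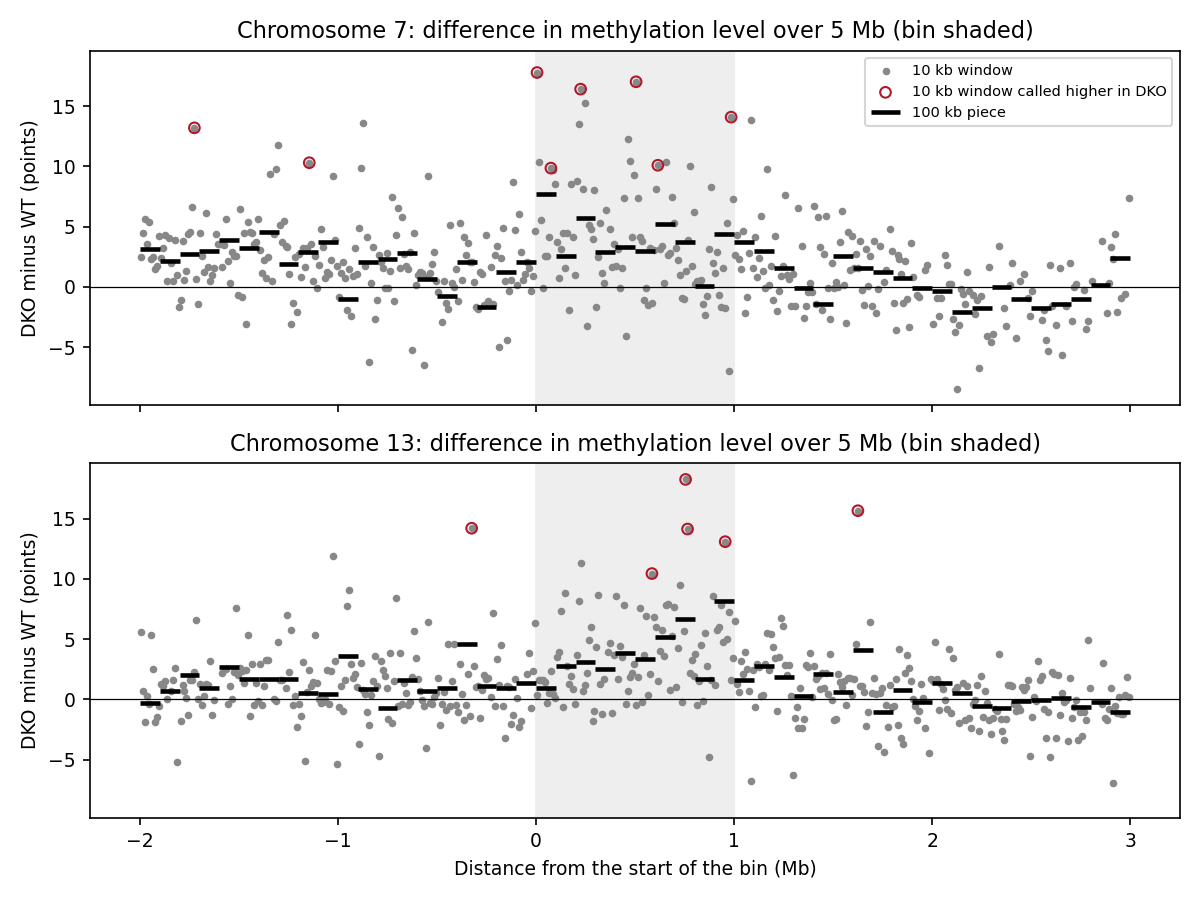
Difference in methylation level, DKO minus WT in percentage points, of each tested 10 kb window (grey points) and each 100 kb piece (black lines), against the distance in Mb from the start of the bin, which is shaded; red circles mark 10 kb windows called higher in DKO. The black lines are all above 0 within the bins, mostly above 0 to the left and on both sides of 0 to the right, and single 10 kb windows of the bins reach 18.3 points.

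In the quasi-binomial test over all 1 Mb bins, 15.6% were called higher in DKO (adjusted p under 0.05) and 0.124% lower. Of the 8 flank bins 1 was called higher and 0 lower, and 3 had an unadjusted p under 0.05 and a higher DKO mean. The called bin was chr7:106000001-107000000, with 80.8%, 81.1% and 82.4% in DKO and 79.2%, 78.5% and 78.1% in WT, a difference of 2.86 ± 0.590 points (SE; quasi-binomial test, adjusted p = 0.00368). It does not touch the chosen bin. The bin between them, chr7:107000001-108000000, had 81.6%, 79.3% and 79.6% in DKO and 79.4%, 78.7% and 79.3% in WT (quasi-binomial test, adjusted p = 0.399). The other 6 had differences of -0.783 to 1.66 points, with adjusted p from 0.138 to 0.938. The bin touching the chromosome 13 bin on its left had the 1.66 points, and the outermost bin on the right of chromosome 7 the -0.783. All DKO samples were above all WT samples in 3 of the 8, against 27.1% of all bins, and below them in 0, against 1.53%.

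Against all autosomes, the differences of the bins in 10 kb windows were shifted as a whole and had a tail of high values besides. The bins were chosen by this same difference, so their shift against the autosomes is a description. On chromosome 7, 99 windows were tested and 80.8% had a higher mean in DKO. The differences had a median of 3.17 points, with a 10th percentile of -1.35 and a 90th of 10.1. On chromosome 13, 99 were tested and 85.9% were higher, with a median of 2.91 points, a 10th percentile of -0.335 and a 90th of 8.24. Over the 199238 autosomal windows tested 61.2% were higher, with a median of 0.733, a 10th percentile of -2.87 and a 90th of 4.94. The left flanks had medians of 2.02 points on chromosome 7 and 1.08 on chromosome 13, and the right flanks 0.202 and 0.492. In the left flank of chromosome 7, 82.3% of windows were higher, with a 10th percentile of -1.35 and a 90th of 5.49. Its lower end was thus like that of the bin. In the left flank of chromosome 13, 67.6% were higher, with a 10th percentile of -1.54 and a 90th of 4.61.

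A 10 kb window was called at an adjusted p under 0.05 and a difference of at least 5 points, which 0.587% of all tested windows met as higher in DKO and 0.0156% as lower. The chromosome 7 bin held 6 called higher and the chromosome 13 bin 4. All DKO samples exceeded all WT samples in 35 windows on chromosome 7 and 38 on chromosome 13 (12.6% of all windows), and apart the other way in 3 and 0 (3.79% of all windows). The same contrast chose the bins, so nothing is read from these counts.

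The 1 kb windows were sorted by their mean level over all 6 samples. A window was tested where it had 3 CpGs or more and each sample gave at least 20 reads, which left 496 on chromosome 7 and 448 on chromosome 13. On chromosome 7 the windows under 80% were 24.0% of these with 34.4% of the reads, and gave 68.6% of the gain. On chromosome 13 they were 19.9% with 26.9% of the reads, and gave 58.5%. Most of the summed window differences thus lay in a minority of windows, those under 80%. The mean used for sorting includes DKO, which limits the difference that a window of 80% or more can have. Such windows gave 65% of the autosomal sum and 41.7% to 47.8% of the sums in the flanks. With the line between classes at 70%, the share was 54.8% on chromosome 7 and 44.0% on chromosome 13, and with the line at 90% it was 88.9% and 83.8%.

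The intermediate classes had the largest differences. This order was partly fixed in advance, since windows were classed by a mean over the samples of both groups. A window with a large change is thereby placed in a middle class, and one near either end of the scale can differ only little. How much of the order comes from the classing was not tested. Windows of 50 to 80% had 72.2%, 73.6% and 72.2% in DKO and 59.5%, 65.9% and 60.2% in WT on chromosome 7, a difference of 10.8 points. On chromosome 13 they had 73.4%, 74.6% and 69.9% in DKO and 60.1%, 63.2% and 62.0% in WT, a difference of 10.9 points. In both bins DKO and WT did not overlap, and the difference of this class over all autosomes was 6.01 points. Windows of 10 to 50% differed by 8.63 points on chromosome 7 and 12.1 on chromosome 13, and by 4.99 over the autosomes. Windows under 10%, which hold the unmethylated promoters, differed by 1.66 and 1.89 points in the bins and by 0.653 over the autosomes.

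The highly methylated windows also had higher levels in DKO. Windows of 80% or more had 93.6%, 93.3% and 93.8% in DKO and 91.6%, 91.6% and 91.5% in WT on chromosome 7, a difference of 1.97 ± 0.148 points (SE). On chromosome 13 they had 94.0%, 94.2% and 94.1% in DKO and 91.5%, 91.6% and 92% in WT, a difference of 2.41 ± 0.181 points. The gap between the groups was several times the spread within them. These windows differed by 1.60 and 1.02 points in the left flanks of chromosomes 7 and 13, by 0.739 and 0.682 in the right flanks, and by 0.785 over all autosomes. Among the 2403 bins with at least 20 such windows, the chromosome 13 bin was number 4 by this difference and the chromosome 7 bin number 34. By the difference in windows under 80%, they were number 22 and number 98 of the 1754 bins with at least 20 of those. Of the windows of 80% or more, 62.6% on chromosome 7 and 62.4% on chromosome 13 had a higher mean in DKO, with median differences of 1.45 and 1.25 points. In the flanks it was 55.6% to 62.3%, the most to the left of chromosome 7, where the median was 1.28 points. Over the autosomes it was 55.6%, with a median of 0.606. The gain was thus in both kinds of window. It was 1.97 and 2.41 points over the summed reads of windows of 80% or more, though not in each of them. In the windows of intermediate level it was larger. In windows of 90% or more the gain was smaller, 0.894 points on chromosome 7 and 1.21 on chromosome 13. Part of this order follows from classing by a mean that includes DKO, so the order is a description. As the bins were chosen for their gain, its excess over the autosomes in any class is a description.

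**Figure D3:**
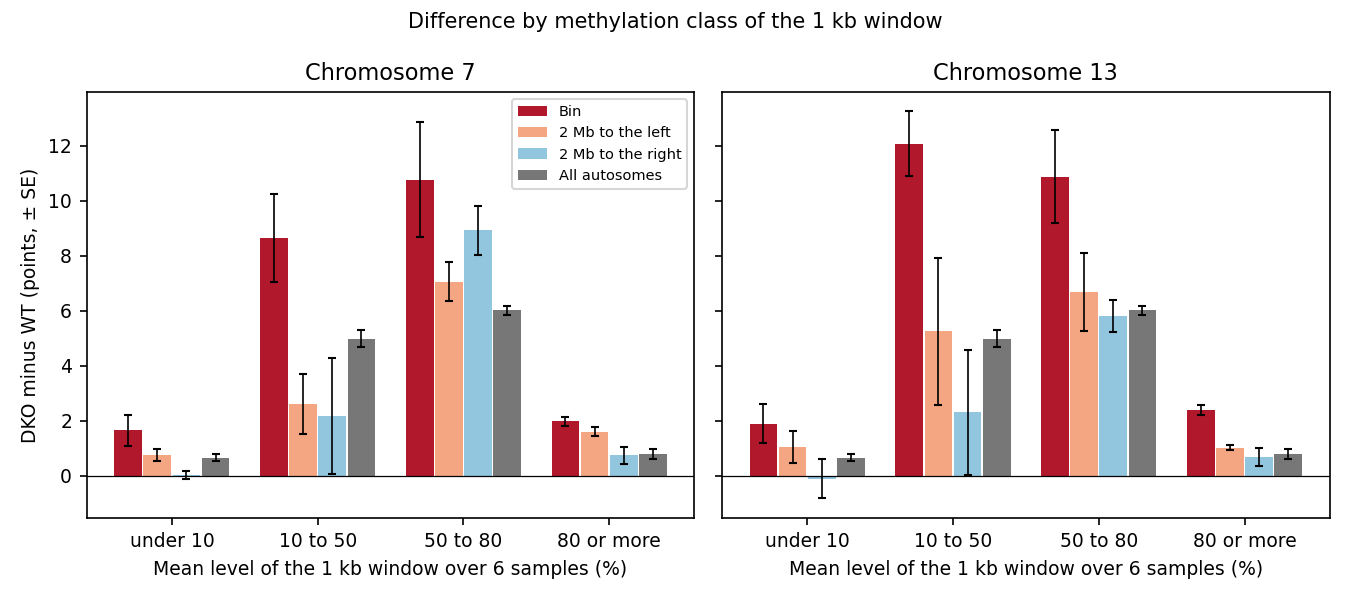
Difference in methylation level, DKO minus WT in percentage points with its SE (3 DKO and 3 WT samples), by the mean level in percent of the 1 kb windows, for each bin, the 2 Mb to its left and to its right, and all autosomes. In the bins the classes of 10 to 50% and 50 to 80% gained 8.63 to 12.1 points and the class of 80% or more gained 1.97 and 2.41 points, and the bin's bar is the highest in each class. The mean level includes DKO, which limits the difference of windows near either end of the scale.

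The gain did not rest on a few windows. Without the 10 windows of 1 kb with the largest differences in each bin it was 3.81 points on chromosome 7 and 3.63 on chromosome 13. Without every tested window under 80% it was 2.41 and 2.23 points. The windows not tested, for too few CpGs or too few reads, had a difference of 3.31 points on chromosome 7 and 2.01 on chromosome 13. By CpG density the largest difference was in windows of 21 to 40 CpGs per kb, at 5.58 points on chromosome 7 and 12 points on chromosome 13, where there were 49 and 29 such windows, against 1.55 points over the autosomes.

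Neighbouring windows under 80% were joined into runs, 67 on chromosome 7 of at most 6 kb and 54 on chromosome 13 of at most 5 kb. The mean was higher in DKO in 60 of the 67, by a median over all runs of 8.75 points, and in 45 of the 54, by 11.6 points. In the left flanks the medians were 3.44 and 6.94 points, in the right flanks 0.829 and 2.78. Of the longer runs, chr7:108602001-108607000 within Pde2a, which holds the downstream start printed above, had 64.7%, 73.3% and 59.6% in DKO and 43.6%, 52.7% and 47.4% in WT. The longest, chr7:108966001-108972000 at the start of Phox2a (a homeobox factor of autonomic neurons), had 18.7%, 17.6% and 21.2% in DKO and 24.2%, 13.3% and 19.2% in WT. DKO lay above WT throughout in the Pde2a run, and the groups overlapped in the Phox2a run.

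**Figure D4:**
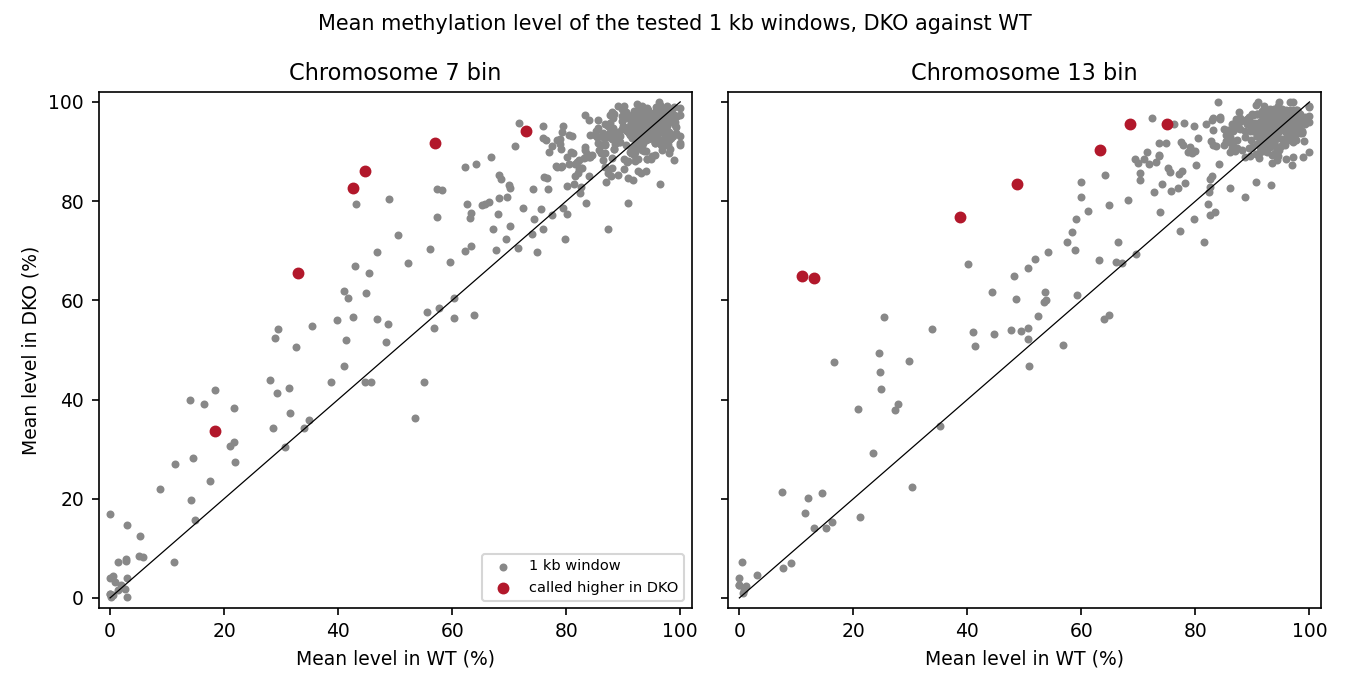
Mean methylation level in percent of each tested 1 kb window of the bins, DKO on the vertical and WT on the horizontal axis, with windows called higher in DKO in red and the line of equal levels in black. Windows of intermediate level lie mostly above the line and those near 0% and 100% close to it, and a pair of red windows on chromosome 13 stands apart at 11% and 13.1% in WT. Windows near the same end of the scale in both groups lie close to the line by construction.

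A 1 kb window was called at an adjusted p under 0.05 and a difference of at least 10 points, which 0.49% of all tested windows met as higher in DKO and 0.00723% as lower. The chromosome 7 bin held 6 called higher and the chromosome 13 bin 7. DKO and WT were apart, with DKO higher, in 81 windows on chromosome 7 and 68 on chromosome 13 (9.05% of all windows), and apart the other way in 18 and 8 (3.75%). As before, these counts are a description.

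The largest difference of either bin was at chr13:37767001-37768000, with 70%, 66.7% and 58.3% in DKO and 10%, 15.9% and 7.02% in WT, a difference of 54.0 points on 36 to 80 reads. Of its 9 CpGs with at least 5 reads in each group 8 were higher in DKO. Next came chr13:37758001-37759000, with 84.6%, 50.6% and 58.3% in DKO and 15.3%, 10.7% and 13.2% in WT, a difference of 51.4 points on 53 to 177 reads. There 24 of 25 CpGs were higher in DKO. The groups were far apart in both. The nearest placed start, that of Gm31600, was 85432 bases from the first and 94432 from the second.

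Most of their surroundings were methylated in both groups. Beside the first, chr13:37766001-37767000 had 96.7% ± 2.88 in DKO and 93.8% ± 0.703 in WT, and chr13:37768001-37769000 had 95.5% ± 0.821 in DKO and 75% ± 1.90 in WT (SD, n = 3 each). Beside the second, chr13:37757001-37758000 had 99.0% ± 1.65 in DKO and 97.0% ± 5.25 in WT, and chr13:37759001-37760000 had 71.8% ± 13.7 in DKO and 57.4% ± 24.7 in WT. The 10 kb windows around the pair, chr13:37750001-37760000 and chr13:37760001-37770000, had the largest differences of that bin at that scale, 18.3 and 14.1 points. In chr13:37750001-37760000 WT replicate 3 lay at 74.0% and the other WT samples at 51.8% and 55.2%, below the DKO samples at 82.3%, 75.6% and 77.8%.

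**Figure D5:**
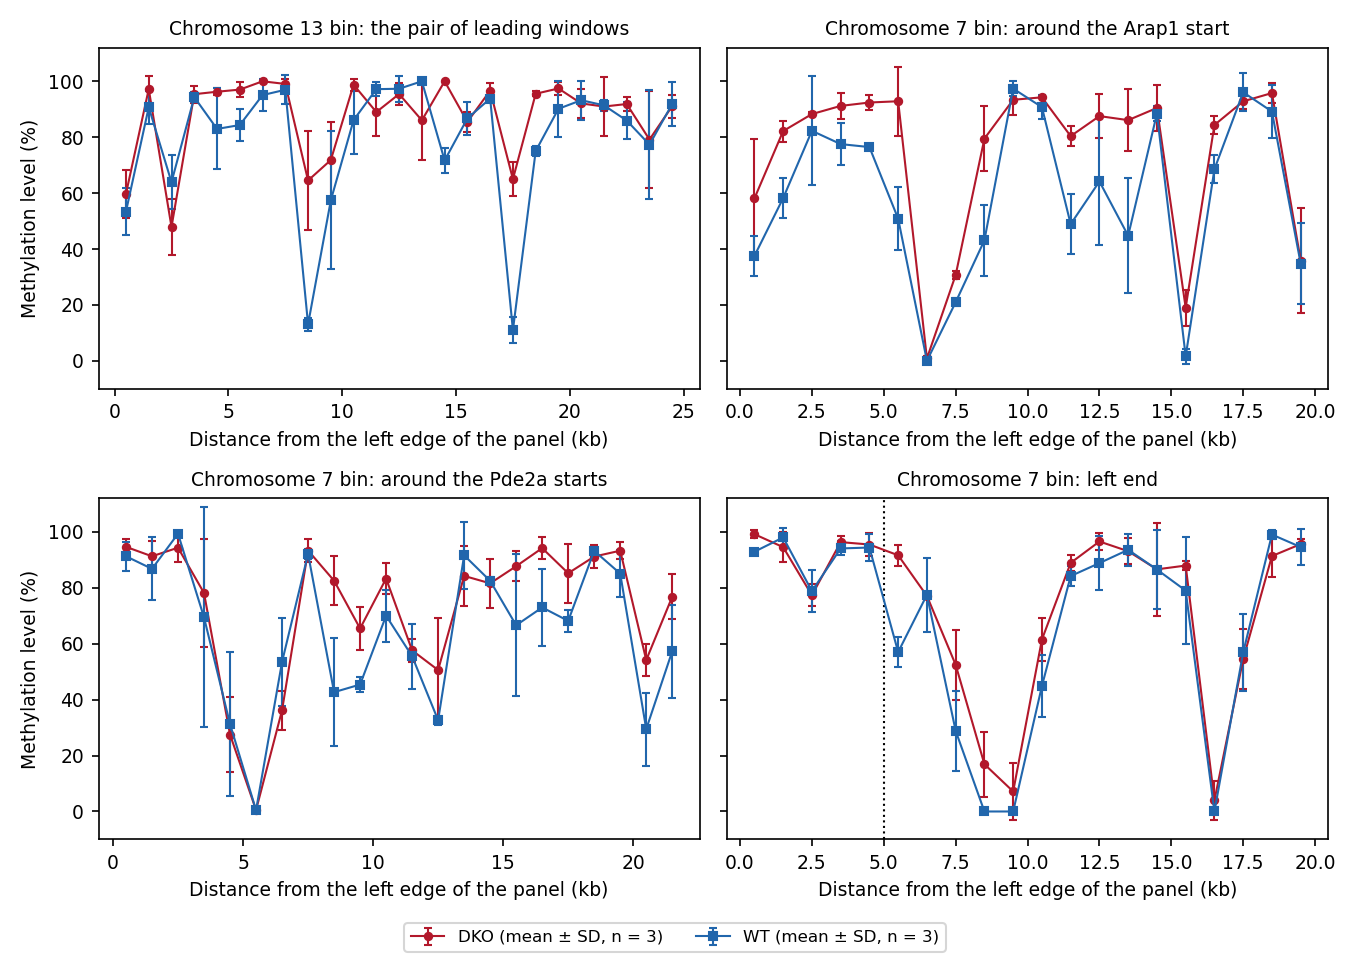
Methylation level in percent (mean ± SD of 3 samples, DKO in red and WT in blue) of consecutive 1 kb windows against the distance in kb from the left edge of each panel, at 4 places chosen after their values were seen; the dotted line is the left edge of the chromosome 7 bin. WT drops to 11% and 13.1% in the pair of chromosome 13 windows, where DKO is at 65% and 64.5%. The windows at the Arap1 and upstream Pde2a starts are near 0% in both groups. Those next to the Arap1 start are higher in DKO, on as few as 4 reads in a sample. Those next to the upstream Pde2a starts have a lower mean in DKO, but the groups overlap, on as few as 7 reads in a sample.

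The other leading 1 kb windows of chromosome 13 included chr13:37895001-37896000, 3555 bases from the Gm46411 start, with 77.8%, 85.7% and 66.7% in DKO and 41.3%, 45.2% and 29.6% in WT. In chr13:37584001-37585000 the levels were 80.5%, 94.0% and 76% in DKO and 45.7%, 47.8% and 52.9% in WT. Neither window had overlap, but with the same weight for each CpG in all samples, their differences of 38.0 and 34.7 points became 16.9 and 21.3. A pair behind the Ly86 start, chr13:37446001-37447000 and chr13:37448001-37449000, differed by 31.3 and 27.2 points. The remaining 4 of the 10 with the largest differences had 25 to 30.9 points. Of these, chr13:37717001-37718000 had 16.8 in place of 27.2 points with the same weights. DKO and WT did not overlap in any of the 10 but chr13:37711001-37712000, with 27.6%, 59.5% and 61.2% in DKO and 13.8%, 9.52% and 50% in WT, where the difference of 25 points was 37.8 without WT replicate 3.

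On chromosome 7 the leading windows gathered around Arap1 and Pde2a. At chr7:108503001-108504000, 6418 bases behind the Arap1 start, the levels were 73.5%, 94.0% and 90.7% in DKO and 21.6%, 60.3% and 52.4% in WT, a difference of 41.3 points. On the same side of the start chr7:108498001-108499000 differed by 36.4 points and chr7:108501001-108502000 by 31.5. None of these had overlap between the groups. The start itself, in chr7:108496001-108497000, had 0%, 1.41% and 1.10% in DKO and 0% in each WT sample. Not every window around it was higher in DKO: chr7:108499001-108500000 had 93.4% ± 5.39 in DKO and 97.4% ± 2.79 in WT (SD, n = 3 each). Before the start, chr7:108491001-108492000 had 82.2% ± 3.75 in DKO and 58.2% ± 7.28 in WT, and chr7:108494001-108495000 had 92.4% ± 2.73 in DKO and 76.5% ± 0.956 in WT. Farther on, chr7:108530001-108531000, 3040 bases before a downstream Arap1 start, had 68.3%, 70.8% and 57.7% in DKO and 39.7%, 20.2% and 39.0% in WT, again with the groups apart.

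In Pde2a the window chr7:108602001-108603000, between its starts, had 80%, 75.4% and 92.3% in DKO and 21.4%, 59.3% and 47.4% in WT, a difference of 39.9 points. The CpG-dense window at the upstream starts, chr7:108599001-108600000, had means of 0.516% in DKO and 0.481% in WT. The window after it, chr7:108600001-108601000, had the most negative difference of the bin, with 29.7%, 43.6% and 35.2% in DKO and 41.9%, 47.2% and 71.4% in WT. In chr7:108602001-108603000 the groups did not overlap, and in chr7:108600001-108601000 they did. Between these, chr7:108601001-108602000 had 93.3%, 97.6% and 89.1% in DKO and 92.1%, 93.8% and 90.5% in WT, again with overlap. At the left edge of the bin chr7:108000001-108001000 had 95.5%, 88% and 91.5% in DKO and 51.9%, 62.5% and 56.8% in WT, a difference of 34.6 points. Its neighbour outside the bin, chr7:107999001-108000000, had means of 95.5% in DKO and 94.4% in WT.

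The remaining 4 of the 10 leading windows on chromosome 7 differed by 24.5 to 25.8 points and were less firm. At chr7:108232001-108233000 the difference of 24.5 points was 13.3 without WT replicate 3, 39.3 without WT replicate 2 and 11.4 with the same CpG weights, and the groups overlapped. At chr7:108243001-108244000 the 25.8 points were 17.0 without DKO replicate 2 and 7.77 with the same weights. At chr7:108575001-108576000 the 25.1 points were 2.10 with the same weights. The last, chr7:108614001-108615000 within Pde2a, had 55.8%, 59.1% and 47.7% in DKO and 18.2%, 26.5% and 43.8% in WT.

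The 10 kb windows with the largest differences on chromosome 7 began with chr7:108000001-108010000, next to the Relt start, at 73.1%, 71.9% and 67.5% in DKO and 52.1%, 51% and 56.0% in WT. With the same CpG weights its difference of 17.8 points was 10.4. In chr7:108500001-108510000, behind the Arap1 start, the levels were 78.2%, 83.4% and 78.4% in DKO and 55.1%, 71.4% and 62.5% in WT. In chr7:108220001-108230000, before the start of Fchsd2 (an F-BAR protein), they were 78.3%, 76.8% and 75.2% in DKO and 58.4%, 64.0% and 58.7% in WT. The groups were apart in each of these. The window chr7:108240001-108250000 differed by 15.3 points, by 9.54 without DKO replicate 3 and by 6.42 with the same weights. The last, chr7:108980001-108990000, holds the start of Inppl1 (an inositol polyphosphate 5-phosphatase) and had 45.9%, 37.4% and 47.2% in DKO and 26.6%, 28.5% and 33.2% in WT. Its difference of 14.1 points turned to -1.05 with the same CpG weights, so no direction is given for it.

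On chromosome 13 the other leading 10 kb windows were chr13:37950001-37960000, between the Rreb1 starts, with 76.4% ± 1.07 in DKO and 63.3% ± 4.86 in WT, and chr13:37580001-37590000, with 93.8% ± 0.695 in DKO and 83.4% ± 0.895 in WT (SD, n = 3 each). The last was chr13:37220001-37230000, with 81.9% ± 2.70 in DKO and 70.6% ± 1.15 in WT (SD, n = 3 each). With the same weights the difference of chr13:37580001-37590000 was 4.89 in place of 10.4 points, and that of chr13:37220001-37230000 was 6.95 in place of 11.3.

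At promoters the low levels stayed low. Of the 18 promoters placed in the chromosome 7 bin 14 had a mean under 10%, among them those of Relt, P2ry2 (a receptor of extracellular nucleotides), Fchsd2, Atg16l2 (an autophagy protein), Clpb and Phox2a. Their differences ran from -4.76 points, at a Pde2a promoter with as few as 7 reads, to 11 points. The upper end was a start of Gm10602 with 3.16%, 19.1% and 15.9% in DKO and 4.05%, 1.09% and 0% in WT, where the groups overlapped. Besides the downstream Pde2a start, 1 promoter of the bin was of intermediate level, the upstream start of Inppl1 (12 CpGs), and it had the opposite sign: 15.6%, 58.6% and 27.9% in DKO and 35.7%, 45% and 40% in WT, with overlap. In the chromosome 13 bin the 2 promoters under 10% were both of Rreb1. The Ly86 promoter had 76%, 97.5% and 92.9% in DKO and 92.2%, 100% and 97.5% in WT, with overlap. That of Gm29590 had 83.6%, 90% and 66.7% in DKO and 40%, 37.5% and 77.2% in WT, with overlap and as few as 8 reads. The F13a1 promoter had 4 reads in its shallowest sample, too few to compare.

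In the flanks a small number of 10 kb windows was called. To the left of the chromosome 7 bin there were 2 of 198, and to its right 0 of 156, where 16 had an unadjusted p under 0.05. Over all autosomes 0.587% of the tested 10 kb windows were called higher, so nothing about the flanks is read from their counts. In chr7:106270001-106280000, near Uvrag (an autophagy protein), the levels were 89.8%, 85.8% and 88.4% in DKO and 73.1%, 74.6% and 76.7% in WT (quasi-binomial test, adjusted p = 0.0243). In chr7:106850001-106860000, at the start of Slco2b1 (an organic anion transporter), they were 84.8%, 87.8% and 86.8% in DKO and 74.0%, 74.1% and 80.4% in WT (quasi-binomial test, adjusted p = 0.0499). The groups were apart in both, and with the same CpG weights the difference at Slco2b1 was 5.69 in place of 10.3 points.

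Beside the chromosome 13 bin 1 of 188 windows was called to the left and 1 of 193 to the right. To the left chr13:36670001-36680000 had 54.5%, 53.8% and 53.6% in DKO and 41.4%, 37.2% and 40.8% in WT (quasi-binomial test, adjusted p = 0.0292). To the right chr13:38620001-38630000, at the start of Txndc5 (a protein disulphide isomerase), had 68.6%, 64.2% and 71.4% in DKO and 50.7%, 51.4% and 55.1% in WT (quasi-binomial test, adjusted p = 0.0239). The groups were apart, but with the same weights the differences of 14.2 and 15.7 points were 3.52 and 0.130. None of the 4 flank windows was called without DKO replicate 3 or without any 1 of the WT replicates, when 53 to 74 flank windows had an unadjusted p under 0.05 and a higher DKO mean.

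In 1 kb windows 7 of 1103 were called higher to the left of the chromosome 7 bin and 0 of 410 to its right (33 with an unadjusted p under 0.05). Beside the chromosome 13 bin it was 3 of 655 to the left and 2 of 871 to the right. Over all autosomes 0.49% of the tested 1 kb windows were called higher, so nothing about the flanks is read from these counts. None of these 12 calls was made with the replicate number as a block, by limma's method or with the minimum of reads at 10, when 157, 190 and 302 flank windows had an unadjusted p under 0.05 and a higher DKO mean. The largest difference was at chr7:107458001-107459000, 23971 bases from the start of P4ha3 (a subunit of collagen prolyl hydroxylase), with 87.3%, 80% and 73.3% in DKO and 32.1%, 50% and 26.7% in WT (quasi-binomial test, adjusted p = 0.00156). The groups were apart, and 15 of 15 CpGs were higher in DKO. It was followed by chr7:107881001-107882000 with 40.3 points (quasi-binomial test, adjusted p = 0.0112). Next were chr7:107278001-107279000 near Pold3 (a subunit of DNA polymerase delta) with 38.9 points and chr7:107004001-107005000 near Spcs2 (a signal peptidase subunit) with 35.0 points. In chr7:106721001-106722000 the 33.3 points were 17.1 with the same weights.

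On chromosome 13 the 5 called windows differed by 25.7 to 33.6 points, the most at chr13:36788001-36789000 with 42.3%, 68.8% and 42.4% in DKO and 22%, 12.9% and 17.9% in WT (quasi-binomial test, adjusted p = 0.0491). Its 33.6 points were 22.2 with the same weights. In chr13:38000001-38001000, the first window outside the bin, the levels were 81.7%, 98% and 88.8% in DKO and 82.6%, 60.8% and 42.6% in WT. There the groups overlapped, and the 27.5 points were 17.8 without WT replicate 3 and 8.90 with the same weights. With any 1 sample left out at most 1 of the 12 calls was made again, without DKO replicate 1, DKO replicate 2 or WT replicate 3 none. To the right of the chromosome 7 bin, where no window was called, the 18 windows of 50 to 80% had 72.7%, 72.7% and 74.8% in DKO and 64.2%, 63.7% and 65.6% in WT. Of these, 14 (77.8%) had a higher mean in DKO, against 71.7% of such windows over the autosomes, and in 1 all DKO samples were above all WT samples. Short windows of intermediate level with a higher mean in DKO occurred in all 4 flanks, as they did over the autosomes. Nothing particular to the flanks is read from this.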

How the data were processed

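The authors deposited, for each CpG and sample, a methylated and a total read count, neither normalised nor pooled. The submitters' processing notes name BSMAP 2.74 and mm9; for read filters, duplicate removal and trimming, settings were not given in the sources used here. There were 0 columns of other samples. Levels are methylated over all reads in percent, with positions counted from 1, summed over 1 kb, 10 kb, 100 kb and 1 Mb. Group values are means of samples. Tested windows had at least 3 CpGs and, in every sample, 20 (1 kb), 100 (10 kb) or 1000 reads (1 Mb).

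Autosomal windows were tested with a quasi-binomial model of the groups, its dispersion moderated across windows, by an F test with Benjamini-Hochberg adjustment, written in Python 3.11.15 with numpy 2.4.6, scipy 1.17.1 and pandas 2.3.3 and tested on simulated data. At 1 kb the shared prior (23.7 degrees of freedom) outweighed the spread within a window, so samples of a called window can differ widely. The alternative by limma's method was also written in Python. P-values measure only the spread between these samples, and depth limits single windows. The read counts of replicates differed beyond sampling noise (chi-square per degree of freedom 11.8 to 117). The highest values, 117 and 81.3, were those of DKO replicate 2 against the other DKO replicates.

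The bins, lists and rules were chosen with earlier results of these data known. Named were, per bin, the 5 10 kb and 10 1 kb windows with the largest differences, and in each flank pair at most 5 called. The same-weight values of single windows and the neighbouring windows were added after values were seen. Promoters with 8 or more CpGs were placed once for 1205 of 1222 on chromosome 7 and 697 of 709 on chromosome 13, those with 5 to 7 for 295 of 300 and 216 of 219, all on their own chromosome.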

Additional observations from a re-analysis of the deposited data

How the results depend on the processing

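All differences of the bins and flank stretches, and of every named window but one, kept their sign under each alternative run. With the same weight for each CpG, over the 54.7% and 59.4% of CpGs read in every sample, the gains were 3.54 points on chromosome 7 and 3.33 on chromosome 13, and chr7:108980001-108990000 turned to -1.05. Of the named windows of the bins 5 of 10 at 10 kb and 6 of 20 at 1 kb moved by over 1.5 times under these weights, and of those in the flanks 3 of 4 and 3 of 10. The cause was not tested. With 1 replicate left out the gains were 3.91 to 4.50 points on chromosome 7 and 3.89 to 4.61 on chromosome 13, and the flank differences 1.92 to 2.33 and 0.161 to 0.615 points left and right of the chromosome 7 bin and 0.936 to 1.52 and 0.405 to 1.15 points left and right of the chromosome 13 bin. No 1 kb window of the bins had over 3 times the median depth.

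The gain in windows of 80% or more on chromosome 7 was 1.74 points with a minimum of 40 reads, 2.53 with the class limit at 70%, 0.894 at 90%, and 1.81 to 2.12 with 1 replicate left out. On chromosome 13 it was 2.07 points with a minimum of 10 reads, 3.05 at 70%, 1.21 at 90%, 1.95 with windows classed by WT replicate 1 alone, 2.14 with windows shifted by 500 bp, and 2.15 to 2.73 with 1 replicate left out. With 1 replicate left out, the share of the summed window differences from lower windows on chromosome 7 was 65.2% to 71.8%. It was 79.1% with a minimum of 40 reads, 54.8% at 70% and 88.9% at 90%. On chromosome 13 it was 69.0%, 44.0% and 83.8% under these settings, 68.0% with windows classed by WT replicate 1 alone, and 52.9% to 66.0% with 1 replicate left out.

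Of the flank calls, the 1 bin of 1 Mb was called under every alternative, with 3 called under the replicate block and 1 to 3 with 1 replicate left out. The 4 windows of 10 kb became 0 by limma's method (73 with an unadjusted p under 0.05 and a higher DKO mean) and 0 to 3 with 1 replicate left out. The 12 windows of 1 kb became 0 under the replicate block (157 unadjusted), 0 by limma's method (190), 0 with the minimum of reads at 10 (302), 1 with it at 40, and 0 to 1 with 1 replicate left out. Over all autosomes 3798 windows of 1 kb were called higher, 0 under the block or by limma's method, and 303 and 269 with the lower and higher minimum. For 10 kb the 1169 became 1486 under the block, 0 by limma's method and 414 with the higher minimum, and for 1 Mb the 376 became 673 and 149. The numbers of the replicates do not pair the samples by the labels: deviations of same-numbered samples correlated at 0.174, 0.193 and 0.0918, each sample best with its own number, which is a hint from the data and not from the design.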
